A study of Mus musculus with 2 samples.

Results

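The genes described here are 7 products of the gastric mucous epithelium: the gastrokines Gkn1, Gkn2 and Gkn3, the trefoil peptides Tff2 and Tff3, and the cell surface proteins Psca and Vsig1. They were chosen by gene symbol, spelled GKN1, GKN2, TFF2, TFF3, PSCA and VSIG1 in the files and with Gkn3 under an older RIKEN clone name, and were 7 of the 16905 genes read outside the background probes. A single probe read each of them. Stomach RNA was compared between a null-labelled array (genotype label Agr2 null) and a wild-type-labelled array (genotype label Agr2 wild-type), both from mice labelled female and aged 26 weeks, whose emptied and rinsed glandular stomachs were extracted with TRIzol. Biotin-labelled RNA was read on Illumina MouseRef-8 v2 bead arrays, on which the abundance of a transcript is read as the fluorescence intensity of its probe. The sources used here do not give the strain, the deleted part of Agr2, or whether an array held RNA of 1 mouse or of several. With 1 array per label no difference could be tested against the spread between animals, and differences are described by size only.

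Gastrokines are small proteins with a Brichos domain that surface and gland mucous cells of the stomach secrete with mucus. Trefoil peptides are compact, disulfide-bonded proteins stored in the same granules as mucins and known for a part in closing epithelial wounds. In the healthy stomach Tff2 belongs to mucous neck cells and pairs with the gland mucin Muc6, whereas Tff3 belongs to intestinal goblet cells. Agr2, a relative of the protein disulfide isomerases, sits in the endoplasmic reticulum, where mucus-secreting cells use it in making mucins.

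The 3 gastrokine genes lie next to each other on mouse chromosome 6, in the order Gkn1, Gkn2, Gkn3, and Tff3 and Tff2 are neighbours on chromosome 17, in RefSeq's GRCm38.p6 annotation. Of the 7 genes, 4 had a promoter sequence in the RefSeq table of that build: Gkn1, Gkn2, Gkn3 and Vsig1. The 250 bases before the transcription start of the 3 clustered gastrokines and of Vsig1 are printed to set the neighbouring gastrokine genes side by side with a gene from elsewhere in the genome, and because Gata, forkhead and Krueppel-like factors of the stomach were read on the same arrays. Capitals mark every match to the letters GATAA, the core recognised by Gata factors, on either strand. The Gkn1 promoter is chr6:87350916-87351165 on the minus strand, the Gkn2 promoter chr6:87373115-87373364 on the plus strand, the Gkn3 promoter chr6:87388936-87389185 on the minus strand and the Vsig1 promoter chrX:140907358-140907607 on the plus strand.
Gkn1: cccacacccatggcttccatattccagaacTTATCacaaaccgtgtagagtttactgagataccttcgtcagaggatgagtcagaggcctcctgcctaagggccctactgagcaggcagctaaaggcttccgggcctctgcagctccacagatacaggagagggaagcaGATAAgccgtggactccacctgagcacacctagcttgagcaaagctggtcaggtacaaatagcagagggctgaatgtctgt
Gkn2: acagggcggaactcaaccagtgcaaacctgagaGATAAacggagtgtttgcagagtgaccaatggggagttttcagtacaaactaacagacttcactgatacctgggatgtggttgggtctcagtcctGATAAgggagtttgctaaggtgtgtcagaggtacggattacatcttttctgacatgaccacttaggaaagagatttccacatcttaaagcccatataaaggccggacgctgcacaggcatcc
Gkn3: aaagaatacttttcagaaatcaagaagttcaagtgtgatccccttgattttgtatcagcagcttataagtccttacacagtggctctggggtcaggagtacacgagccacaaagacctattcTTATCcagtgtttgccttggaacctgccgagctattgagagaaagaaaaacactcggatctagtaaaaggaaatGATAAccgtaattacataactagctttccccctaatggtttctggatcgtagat
Vsig1: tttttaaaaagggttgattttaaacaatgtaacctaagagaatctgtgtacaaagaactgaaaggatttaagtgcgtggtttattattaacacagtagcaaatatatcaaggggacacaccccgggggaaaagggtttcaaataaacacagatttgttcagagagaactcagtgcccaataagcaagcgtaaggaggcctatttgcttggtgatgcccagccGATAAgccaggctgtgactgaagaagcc

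Each of the 3 gastrokine promoters held 2 matches to GATAA, and the Vsig1 promoter held 1. At least 1 match stood in 22.6% of the 32851 RefSeq promoters of the same length, and at least 2 in 4.28%. The matches began 220 and 81 bases before the start of Gkn1, 217 and 122 bases before that of Gkn2, 128 and 54 bases before that of Gkn3 and 28 bases before that of Vsig1. The forkhead core TGTTTNC was found once in the Gkn2 promoter and once in the Gkn3 promoter, and 17.8% of all promoters held it. The Krueppel-like core CACCC was found once in the Gkn1 promoter and once in the Vsig1 promoter, and 52% of all promoters held it. The TATA box letters TATAAA stood only in the Gkn2 promoter among these 4, 29 bases before its start, and in 12.4% of all promoters. Both strands were searched, and no match to 1 of these motifs overlapped a match to another.

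Agr2 itself went against the labels. The Agr2 probe read 3406 on the null-labelled array and 972 on the wild-type-labelled array, a normalized value 3.13-fold higher on the null-labelled array, so both arrays are called by their labels. Since the deleted part is unknown, so is the place of the probe relative to it, and a probe elsewhere in the gene would check nothing. Xist, which coats the inactive X chromosome, read 1774 on the null-labelled array and 186 (below background) on the wild-type-labelled array, and Y-linked Eif2s3y read 134 (below background) on the null-labelled array and 2096 on the wild-type-labelled array, although both samples are labelled female. Y-linked Ddx3y read 2138 on the null-labelled array and 5332 on the wild-type-labelled array, Kdm5d 119 (below background) on the null-labelled array and 303 on the wild-type-labelled array, and Uty 245 on the null-labelled array and 210 on the wild-type-labelled array (log2 difference 0.05). Markers of the squamous epithelium that lines the forestomach, and of other tissues, also differed: the 12 squamous epithelium probes summed to 4424 on the null-labelled array and 167686 on the wild-type-labelled array, the 10 pancreatic acinar probes to 7965 on the null-labelled array and 48345 on the wild-type-labelled array. The 8 smooth muscle probes summed to 28707 on the null-labelled array and 112448 on the wild-type-labelled array, and the 11 neutrophil probes to 34256 on the null-labelled array and 4124 on the wild-type-labelled array. Other gland cells of the glandular stomach differed too. The 13 parietal cell probes summed to 19993 on the null-labelled array and 172323 on the wild-type-labelled array, the 6 chief cell probes to 64132 on the null-labelled array and 161961 on the wild-type-labelled array and the 8 endocrine cell probes to 8192 on the null-labelled array and 76358 on the wild-type-labelled array. In tissue RNA, fewer cells of a type and less RNA per cell cannot be told apart, and the part of these differences in the values below was not tested.

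Against this background the 7 genes did not differ in 1 direction. Gkn3 and Vsig1 were at least 2-fold higher on the null-labelled array, Tff3 and Psca at least 2-fold lower, and Gkn1, Gkn2 and Tff2 within 2-fold. Among all 9353 genes detected on at least 1 array, 10.7% were at least 2-fold higher, 13.5% at least 2-fold lower and 24.2% past 2-fold in either direction. The 7 genes had a median log2 difference of 0.23, against 0.0 over all detected genes. That median is the value of Gkn1, which was near the top of the signal range on both arrays, so it gives the 7 genes no direction. A gene counts as detected where its probe was brighter than all but 1% of 1314 probes for olfactory and vomeronasal receptors, which served as background. For a gene below background on 1 array the difference is taken against the lowest detected value of that array. It still depends on the background correction, which widens the differences of dim genes, so it is not a strict bound.

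**Figure D1:**
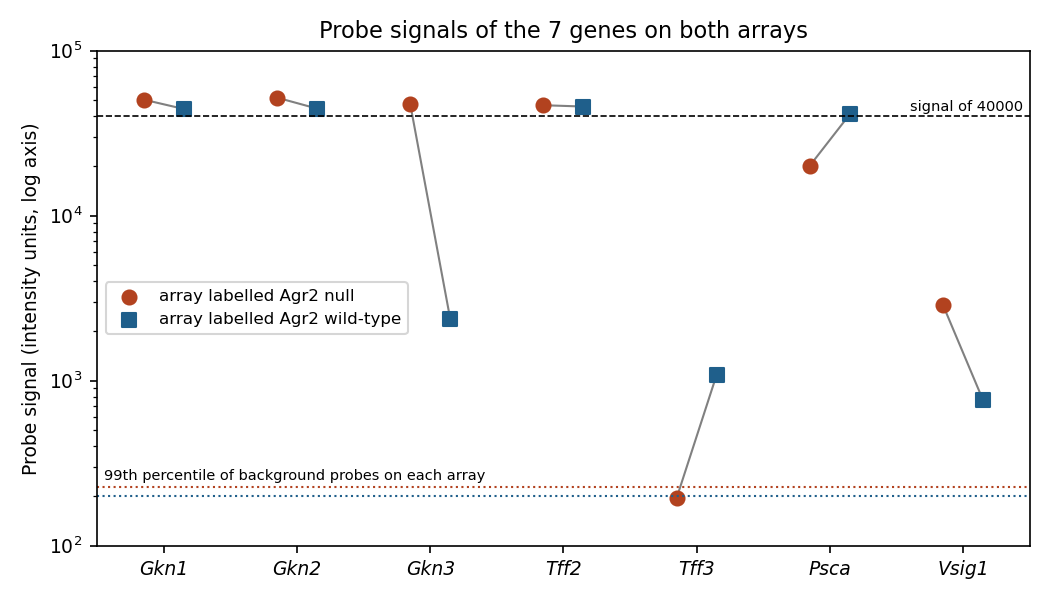
Probe signal (intensity units, log axis) of each of the 7 genes on the null-labelled array (circles) and the wild-type-labelled array (squares), 1 probe and 1 array each, joined by a line. Gkn1, Gkn2 and Tff2 lie above the dashed line at a signal of 40000 on both arrays, Gkn3 only on the null-labelled array and Psca only on the wild-type-labelled array, and on the null-labelled array Tff3 lies below the dotted background line (227 on the null-labelled array, the 99th percentile of probes that served as background).

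Gkn1, also called AMP-18, is the major gastrokine of surface mucous cells. Its signal was 50524 on the null-labelled array and 44373 on the wild-type-labelled array. The normalized log2 difference was 0.23, but it was -0.0022 in the authors' processed values, -0.084 after shifting the values so that 15 epithelial genes had a median difference of 0 (centring on epithelial genes) and -0.27 after scaling to equal medians. Gkn2, a gastrokine known to form a disulfide-linked dimer with Tff1, read 51972 on the null-labelled array and 44615 on the wild-type-labelled array, a normalized log2 difference of 0.25 that was -0.23 after scaling to equal medians and -0.061 after centring on epithelial genes. No direction can therefore be given for either gene.

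The signals of Gkn1 and Gkn2 also stood near the top of what these arrays read. The brightest probe read 57194 on the null-labelled array and 57640 on the wild-type-labelled array, and over 40000 stood 34 probes of the null-labelled array and 39 of the wild-type-labelled array. Of these, 19 were over 40000 on both arrays, with ratios of the null-labelled array over the wild-type-labelled array between 0.878 and 1.22. Since the brightest signal was 1.44 times 40000, no probe over 40000 on both arrays could reach a 2-fold difference in signal. A larger difference in the RNA of Gkn1 or Gkn2 was thus not detectable at these signals.

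Gkn3 is the gastrokine of mucous neck cells in the mouse corpus, and in humans its counterpart is a pseudogene. The Gkn3 probe read 47368 on the null-labelled array and 2368 on the wild-type-labelled array. Gkn3 was 19.4-fold higher on the null-labelled array, a log2 difference of 4.28, and 17.5-fold higher in the authors' processed values. Of the 7628 genes detected on both arrays, 15 had a larger difference in that direction (0.197%). The signal on the null-labelled array was over 40000, where differences are compressed. Its neighbours Gkn1 and Gkn2 were over 40000 on both arrays, so whether the 3 clustered gastrokines differed alike cannot be read from these signals.

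The signal of Tff2, the spasmolytic polypeptide of mucous neck cells, was 46750 on the null-labelled array and 45896 on the wild-type-labelled array, both over 40000. The log2 difference was 0.08, and it was below 0 after cyclic loess (-0.15), in the authors' processed values (-0.16), after centring on epithelial genes (-0.23) and after scaling to equal medians (-0.43). As with Gkn1 and Gkn2, these signals leave no room for a 2-fold difference to be seen, and no direction can be given.

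Tff3, the trefoil peptide of intestinal goblet cells, had the largest negative difference of the 7 genes. Its probe read 195 on the null-labelled array, below background with 3.65% of background probes at least as bright, and 1087 on the wild-type-labelled array. Against the lowest detected value, Tff3 was at least 5.45-fold lower on the null-labelled array in the authors' processed values, which carry no background correction made here. With background correction the same comparison gave 11.2-fold (log2 difference -3.49), and the largest value under the alternatives was 15.7-fold. The probe's own signals differed 5.57-fold. The value on the null-labelled array shows no Tff3 RNA above background there and does not show its absence.

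Psca, a small surface protein of the Ly6 family that is anchored in the membrane by a lipid, is found on gastric surface and isthmus cells. The Psca probe read 20146 on the null-labelled array and 41268 on the wild-type-labelled array, where it was over 40000. Psca was 2.09-fold lower on the null-labelled array, a log2 difference of -1.06, close to the 2-fold threshold. Of the genes detected on both arrays, 733 were lower still (9.61%). Its ratio to Cldn18, the stomach's own claudin, was 2.61-fold lower in signal, with Psca over 40000 on the wild-type-labelled array. The ratio to the epithelial gene Cdh1 was 2.02-fold lower in signal, and under 2-fold in normalized values (log2 difference -0.89).

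Vsig1, an adhesion protein of the immunoglobulin superfamily on gastric glandular epithelium, read 2859 on the null-labelled array and 760 on the wild-type-labelled array. Both signals were clear of background and of the top of the range. Vsig1 was 3.43-fold higher on the null-labelled array, a log2 difference of 1.78, and 198 genes detected on both arrays (2.60%) were higher still. Its ratio to Cldn18, which was under 40000 on both arrays, was 2.95-fold higher in signal on the null-labelled array, and this ratio does not depend on a scaling factor per array. Vsig1 lies on the X chromosome, and Xist differed between the arrays. Its X-linked neighbour Psmd10, named after its value was seen, read 2471 on the null-labelled array and 1619 on the wild-type-labelled array, a log2 difference of 0.37.

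**Figure D2:**
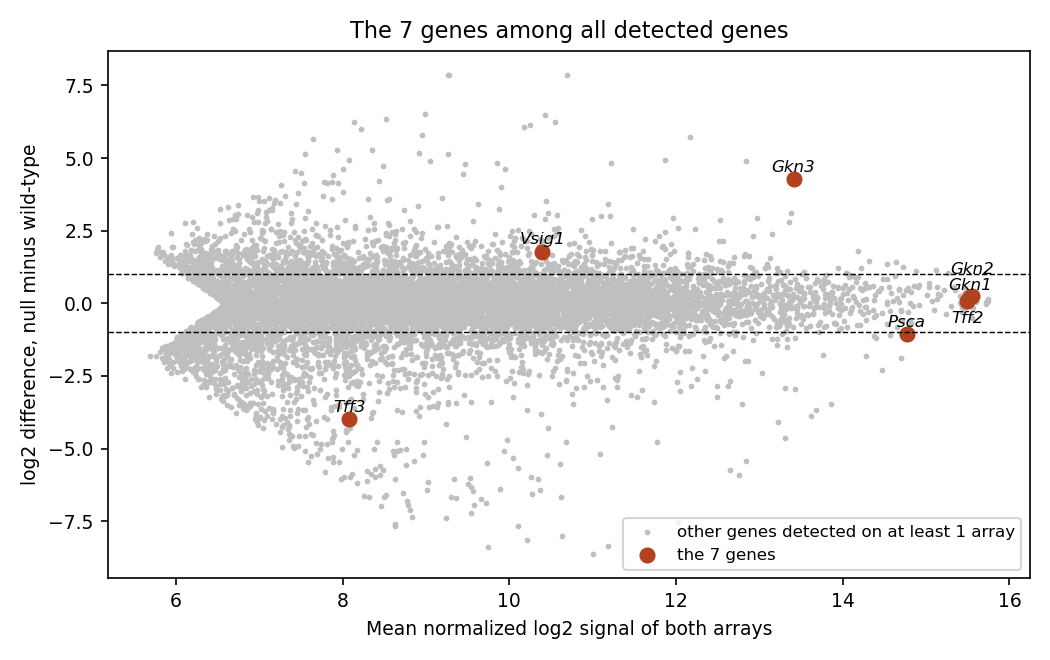
Normalized log2 difference (null-labelled array minus wild-type-labelled array) against the mean normalized log2 signal of both arrays, for the 9353 genes detected on at least 1 array, with the 7 genes in colour and dashed lines at a 2-fold difference. Gkn3 (4.28) stands out among bright genes, Gkn1, Gkn2 and Tff2 sit at the bright end near 0, and Tff3 is drawn at its fitted value of -3.98, although its probe was below background on the null-labelled array.

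The genes whose log2 difference lay closest to that of Vsig1, over 2 arrays, were Rgs16 (apart by 0.0015), Ambp (0.0024) and Uso1 (0.0031). They are 3 of the 178 genes detected on both arrays within 0.25 of it, Vsig1 included, so 2 arrays do not single out a partner. The other members were below background on 1 array or over 40000 on at least 1 and were not matched in this way.

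The listed mucous neck cell genes besides the members were higher on the null-labelled array, as Gkn3 was, whereas no direction could be given for Tff2. All 4 detected of 5 listed genes were at least 2-fold higher (3 without background correction and 3 after centring on epithelial genes), with a median log2 difference of 2.07. Aqp5, a water channel, read 1546 on the null-labelled array and 239 on the wild-type-labelled array, a log2 difference of 3.20. A4gnt, which caps the sugar chains of gland mucin, read 665 on the null-labelled array and 188 (below background) on the wild-type-labelled array, a log2 difference of 1.83 in signal and 2.32 after background correction. The gland mucin Muc6 read 1067 on the null-labelled array and 467 on the wild-type-labelled array (log2 difference 1.08). Bhlha15 read 2999 on the null-labelled array and 774 on the wild-type-labelled array (1.81). This transcription factor is also on the chief cell list, so it does not mark mucous neck cells alone. Within an array the ratio of Gkn3 to Muc6 was 8.77-fold higher on the null-labelled array. The ratio of Tff2 to Muc6 was 2.24-fold lower there, a value that the top of the signal range limits. The genes of other gland cells differed on the same arrays. Of 10 detected parietal cell genes 9 were at least 2-fold lower and 1 higher, with a median of -3.28. Without background correction and in the authors' processed values 7 were lower. With the mean over a gene's probes 8 were lower and none higher, with a median of -1.81. The proton pump subunits Atp4a and Atp4b had log2 differences of -8.37 and -7.51. Of 6 chief cell genes 2 were lower, the intrinsic factor gene Gif (-4.63) and the chitinase Chia1 (-5.42), 1 was higher and 3 were within 2-fold. Of 6 detected endocrine cell genes 4 were lower and 1 higher (none without background correction), with a median of -3.20. All 3 detected plasma cell genes were at least 2-fold higher, with a median of 2.25. Of 3 detected antral and duodenal genes 2 were higher, Vil1 (2.59) and Pdx1 (1.92), and 1 was within 2-fold. Their median of 1.92 was 0.50 at a detection p under 0.05. The part of these cells, or of the stomach region sampled, in the mucous neck cell values was not tested. The mucous neck cell list was chosen with earlier results of these arrays known and is no independent evidence of its direction.

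The surface mucous cell genes besides Gkn1 and Gkn2 were mostly within 2-fold. Of 9 detected genes 1 was higher, 1 lower and 7 within 2-fold, with a median of 0.19 that was -0.13 after centring on epithelial genes. The lower one was the secreted mucin Muc5ac, which read 2669 on the null-labelled array and 39881 on the wild-type-labelled array (-4.08). The higher one was the keratin Krt20, at 10127 on the null-labelled array and 2912 on the wild-type-labelled array (1.63). The membrane mucin Muc1 read 25856 on the null-labelled array and 11532 on the wild-type-labelled array (0.99), and the protease Capn8 425 on the null-labelled array and 540 on the wild-type-labelled array (-0.84). Since Gkn1 and Gkn2 were over 40000 on both arrays, they could not pass 2-fold in signal. They cannot be set against Muc5ac or the rest of this list.

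Goblet cell genes gave Tff3 no common direction. Of 8 listed goblet genes read besides Tff3, 4 were detected, 2 of them (Agr2 and Spdef) higher and 1 lower. Their median of 0.71 was 0.02 at a detection p under 0.05. Agr2 is the gene of the genotype labels and its probe went against them, so its value is no independent goblet cell marker. Zg16, a secreted lectin of goblet cells that pancreatic acini also make, read 310 on the null-labelled array and 5458 on the wild-type-labelled array (-5.09), like Tff3 lower on the null-labelled array. Pancreatic acinar genes were lower there as well, with 9 of 10 detected at least 2-fold lower and a median of -4.68, and 9 of the 10 were below background on the null-labelled array; their part in the Zg16 and Tff3 values was not tested. Spink4, a goblet cell protease inhibitor, read 2989 on the null-labelled array and 2449 on the wild-type-labelled array (0.02). Spdef, a regulator of mucous secretory cells, read 1711 on the null-labelled array and 603 on the wild-type-labelled array (1.39).

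**Figure D3:**
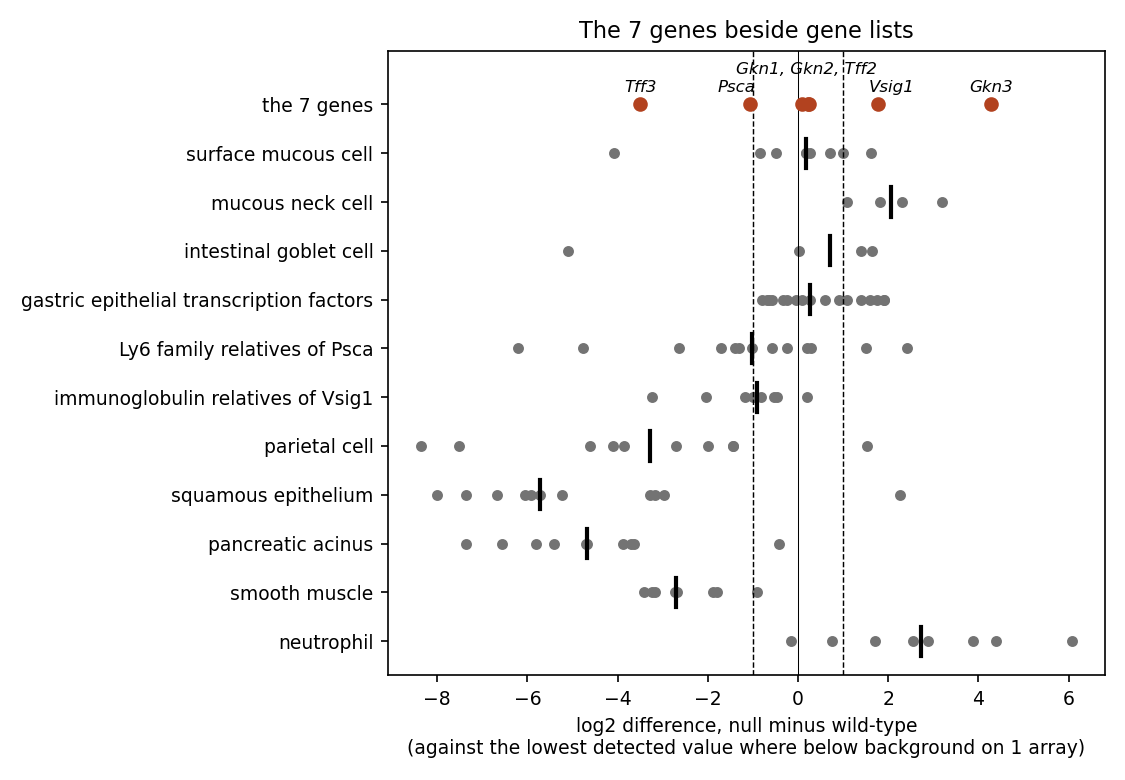
log2 difference (null-labelled array minus wild-type-labelled array) of the 7 genes (top row, named) and of the detected genes of 11 lists (1 point a gene, black bar at the list median), with genes below background on 1 array taken against the lowest detected value of that array and dashed lines at a 2-fold difference. Gkn3 (4.28) lies to the right of the detected mucous neck cell genes (1.08 to 3.20, median 2.07). Gkn1, Gkn2 and Tff2 were near the top of the signal range on both arrays, with no room for a 2-fold difference in signal. They cannot be set against the surface mucous cell median (0.19). Tff3 lies on the side of the squamous and acinar genes (medians -5.73 and -4.68).

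Proteins known to bind or assist trefoil peptides and gastrokines differed in both directions. Of 7 detected, 3 were at least 2-fold higher (2 without background correction and 2 after centring on epithelial genes) and 1 lower, with a median of 0.95. Dmbt1, a scavenger receptor that binds trefoil peptides, read 32834 on the null-labelled array and 3409 on the wild-type-labelled array (3.12). Muc5ac, which carries the lower value in this list, and Muc6 and A4gnt are given above. Cxcr4, a chemokine receptor through which Tff2 has been described to signal, read 480 on the null-labelled array and 272 on the wild-type-labelled array (0.83).

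Relatives by protein family were read as well. Among Brichos proteins, 2 of 6 were detected and both were within 2-fold. Itm2b, a membrane protein of many tissues, read 32479 on the null-labelled array and 21420 on the wild-type-labelled array (0.50), and Tnmd, of tendon, 112 (below background) on the null-labelled array and 205 on the wild-type-labelled array (-0.09 against the lowest detected value). The lysosomal glucosidase Gaa, which also holds a trefoil domain, read 1084 on the null-labelled array and 866 on the wild-type-labelled array (0.03).

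Ly6 family relatives of Psca were more often lower on the null-labelled array. Of 13 detected, 7 were lower, 2 higher and 4 within 2-fold, with a median of -1.02 that was above -1 under 7 of 10 alternatives. Lypd3, of stratified epithelia, read 210 (below background) on the null-labelled array and 6691 on the wild-type-labelled array (-4.99 in signal, -6.21 after background correction), and Ly6g6c 477 on the null-labelled array and 8114 on the wild-type-labelled array (-4.76). Slurp1, a secreted relative from keratinocytes encoded near Psca on chromosome 15, read 336 on the null-labelled array and 1190 on the wild-type-labelled array (-2.63), whereas Them6, the gene next to Psca, named after its value was seen, read 1945 on the null-labelled array and 1219 on the wild-type-labelled array (0.44). Squamous epithelium genes were lower on the same array, 10 of 11 detected with a median of -5.73, and 7 of the 12 squamous probes were below background there. Their part in the Ly6 family values was not tested. The 2 higher relatives were Plaur, the urokinase receptor, at 1388 on the null-labelled array and 302 on the wild-type-labelled array (2.43), and Ly6d, at 8917 and 2738 (1.52).

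Among immunoglobulin superfamily relatives of Vsig1, none was at least 2-fold higher. Of 8 detected, 3 were lower (5 after centring on epithelial genes, 2 without background correction and 2 in the authors' processed values) and 5 within 2-fold, with a median of -0.91. Vsig8, of hair and stratified epithelium, read 312 on the null-labelled array and 1570 on the wild-type-labelled array (-2.33 in signal, -3.24 after background correction). The junction protein Jam3 read 215 (below background) on the null-labelled array and 462 on the wild-type-labelled array (-1.10 in signal, -2.04 after background correction). The adhesion molecule Clmp read 338 on the null-labelled array and 497 on the wild-type-labelled array. It was within 2-fold in signal (-0.56) and past it only after background correction (-1.17). Vsig2, which like Vsig1 is made in the stomach, read 10465 on the null-labelled array and 13370 on the wild-type-labelled array (-0.52). The 8 detected relatives had log2 differences from -3.24 to 0.20. The list is short and was chosen with earlier results known, so it does not set Vsig1 apart from its family.

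Transcription factors of the gastric epithelium were mostly within 2-fold. Of 17 detected, 6 were at least 2-fold higher, 11 within 2-fold and none lower, with a median of 0.27. After centring on epithelial genes 5 were higher and 2 lower, with a median of -0.041. Pdx1, of the antrum and duodenum, read 1000 on the null-labelled array and 297 on the wild-type-labelled array (1.92), and Foxa1, a forkhead factor of endoderm, 5241 on the null-labelled array and 1385 on the wild-type-labelled array (1.75). The factors whose core letters were searched in the promoters were for the most part within 2-fold. Gata4 had a log2 difference of -0.69, Gata5 of -0.25 and Gata6 of -0.58. In signal, which is not normalized, these were -0.20, 0.10 and -0.29. The forkhead factors Foxa2, Foxa3 and Foxq1 had log2 differences of -0.64, -0.81 and 0.27 (-0.16, -0.60 and 0.44 in signal). The Krueppel-like factor Klf4 had one of -0.03, while Klf5 (1.08) and Foxa1 were higher. A motif match describes letters only, and no binding was measured.

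**Figure D4:**
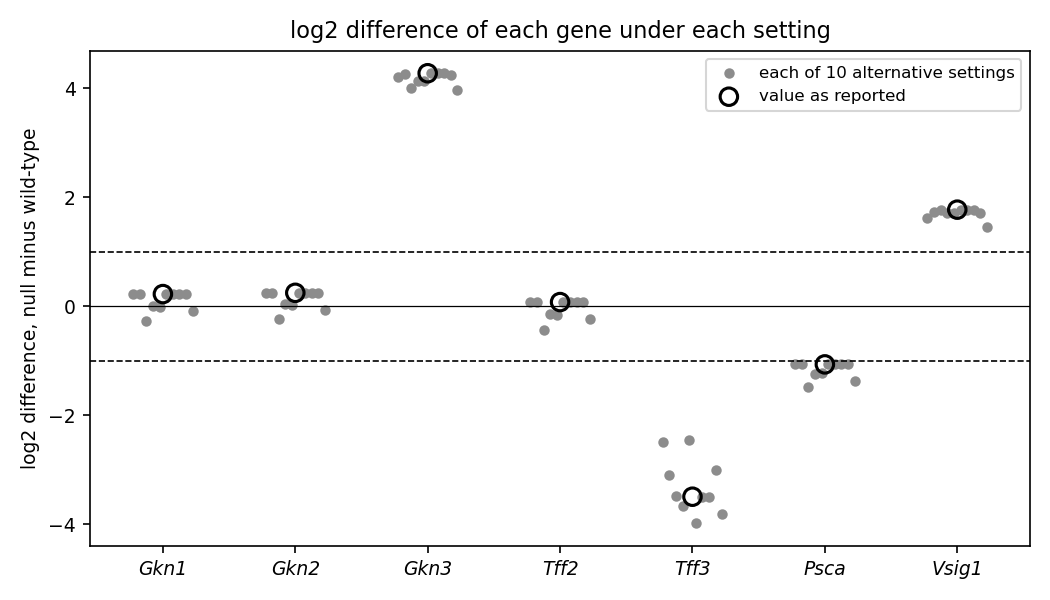
log2 difference (null-labelled array minus wild-type-labelled array) of each of the 7 genes as reported (open circles) and under each of 10 alternative ways of processing (grey points), with dashed lines at a 2-fold difference and a solid line at 0. Gkn3 lay between 3.97 and 4.28, Vsig1 between 1.46 and 1.78, Psca between -1.47 and -1.06 and Tff3 between -3.98 and -2.45, whereas Gkn1, Gkn2 and Tff2 lay on both sides of 0.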

How the data were processed

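Stomach RNA of 2 samples, 1 per genotype label, was read on bead arrays. The deposited intensity values are on a linear scale, with 1 signal for each probe on each array. The authors' file of 25697 probes with signals that were not normalized was the starting point; the sources used here do not say how beads were summarised or background handled. The processed intensity table deposited by the authors equals those signals times 0.842 on the null-labelled array and 0.960 on the wild-type-labelled array, found from the values.

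A normal-exponential model (limma 3.58.1, R 4.3.3) removed background, its parameters taken from 1314 olfactory and vomeronasal receptor probes and with an offset of 16, then quantile normalization and log2 followed. These probes, chosen after the files were seen, had a median signal of 134 on the null-labelled array and 123 on the wild-type-labelled array. Genes were detected at a detection p under 0.01 (8345 genes on the null-labelled array and 8636 on the wild-type-labelled array) and represented by their brightest probe. Of 18138 symbols, 14309 matched a current symbol, 2683 a single synonym, and 1146 kept the file's name. Probe sequences were not used here, so signal from related transcripts was not checked. Differences are null minus wild-type, with no test. The steps were tested on simulated data with differences placed only in genes of middle signal and no upper limit of signal. That test does not cover genes over 40000. The members and lists were chosen with earlier results of these data known. The text names by rule the 7 genes, Agr2, up to 4 genes per list with the largest differences and the 3 genes closest to a member under 40000 on both arrays. Xist, the Y-linked genes, Cldn18, Cdh1, Psmd10, Them6, Cxcr4, Plaur, Ly6d and Vsig2 were chosen after their values were seen. So were Gata4, Gata5, Gata6, Foxa2, Foxa3, Foxq1, Klf4 and Klf5.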

Additional observations from a re-analysis of the deposited data

How the results depend on the processing

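No paired analysis was possible because each label has 1 array. Over 8 other ways of processing and 2 more chosen after seeing the data (background from all probes, and centring on epithelial genes, which shifts all values by 0.31), Gkn3 and Vsig1 were at least 2-fold higher and Tff3 and Psca at least 2-fold lower throughout. Gkn1, Gkn2 and Tff2 were within 2-fold throughout but changed sign. All genes at least 2-fold higher numbered 1002 as reported, 634 without background correction and 584 after centring on epithelial genes; those at least 2-fold lower numbered 1265 as reported and 766 in the authors' processed values. The share of calls that were higher was 44.2% as reported and 23.8% after centring on epithelial genes. Of 180 list medians under these alternatives, 169 kept their side of 2-fold, 9 were weaker and 2 stronger, and none changed sign past it. The Ly6 family median lay between -0.997 and -0.598 under the 7 alternatives where it missed 2-fold, and the immunoglobulin relatives' median was -1.01 after cyclic loess and -1.22 after centring on epithelial genes. Signals over 40000 limit Gkn1, Gkn2, Tff2, Gkn3 and Psca, and background limits Tff3. The lack of replicate arrays limits every value.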
